A study of Mus musculus with 22 samples.

Results

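Mitochondrial ribosomal proteins are the protein parts of the mitoribosome, the ribosome inside mitochondria. It translates the few mRNAs of the mitochondrial genome, which encode core subunits of the respiratory chain and of ATP synthase. Its proteins are encoded in the nucleus, made on cytosolic ribosomes and imported. The small subunit binds the mRNA and decodes it, and the large subunit joins the amino acids. Some of these proteins have counterparts in bacterial ribosomes, while others are found only in mitoribosomes. Heart muscle depends on mitochondrial respiration, and inherited defects in several of these genes, MRPL3, MRPL44 and MRPS22 among them, cause cardiomyopathy in humans.

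The genes were taken by symbol, as all rows of the count tables whose symbol begins with Mrpl or Mrps and a digit. This gave 82 of the 48709 genes counted. Of these, 48 were large subunit genes, 29 were small subunit genes and 5 were pseudogenes. The 77 coding genes lay on 17 chromosomes, with the most (10) on chromosome 11. By textbook assignment, 46 of the coding genes have a bacterial counterpart and 30 are specific to mitochondria. The remaining gene, Mrps36, keeps its ribosomal name although its protein is now known as a component of the alpha-ketoglutarate dehydrogenase complex.

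RNA came from heart ventricles of mouse embryos at E13.5, and all embryos carried Nkx2.5-Cre, which recombines floxed alleles in cardiac precursor cells. The first experiment compared LIN9 wt with LIN9 KO ventricles, whose titles name no Sav1 genotype and which were taken as wild-type for Sav1. The second held LIN9 wt Sav1 wt (the control), LIN9 KO Sav1 wt (called LIN9 KO), LIN9 wt Sav1 KO (called Sav1 KO) and LIN9 KO Sav1 KO (the double knockout), so that there were 6 genotype groups of 3 libraries each, 18 libraries in all. The LIN9 KO ventricles were Lin9 fl/fl and the Sav1 KO ventricles Sav1 fl/fl. Per the study's text, LIN9 wt stands for Lin9 fl/+, so that these controls carried 1 floxed allele and the Cre, while the labels call them wild-type. LIN9 is a subunit of the MuvB core, which represses cell cycle genes as part of the DREAM complex and activates late cell cycle genes when bound to B-MYB, and SAV1 is a scaffold protein of the Hippo kinase cascade, which restrains the coactivator YAP. Whole ventricles were used, which also hold cells in which Nkx2.5-Cre is not active. The study's text describes the LIN9 comparison as biological replicates done in triplicate each. The 3 libraries of a group may thus be technical repeats, and the first and second experiment the biological ones. No source used here ties a library to an embryo, so the p-values measure only the spread between these libraries.

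Total counts ranged from 9485599 to 9615274 per library in the first experiment and from 2770741 to 2999877 in the second. The members took 24693 to 34872 counts per library in the first and 6455 to 10150 in the second. For LIN9 KO against LIN9 wt, members' log2 fold changes had a median standard error of 0.11 in the first and 0.14 in the second. Of the 77 coding members, 71 (43 large and 28 small subunit genes) passed the filter of a mean count above 1. The other 6 were Mrpl17, Mrpl2, Mrpl33, Mrpl40, Mrpl53 and Mrps34, which had 0 counts in all 18 libraries. On GRCm38, 5 of them have 100% and Mrpl33 has 99.96% of their exonic length within the span of another annotated gene. Mrpl17, for example, lies at chr7:105803206-105811099 inside Gm15645, and Mrps34 at chr17:24895116-24897502 inside Mapk8ip3. The cardiac actin gene Actc1, which heart muscle uses heavily, and the erythroid gene Alas2 were likewise at 0 in every library, so a count of 0 in these tables does not show that a gene was silent.

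The targeted genes did not check the labels cleanly. Counts over the whole gene include the exons that the deletions leave in place. Whether these exons or cells without active Cre account for the values was not tested. Lin9 stood at 29.8, 21.4 and 25.6 CPM (the count scaled to library size) in LIN9 wt and at 21.4, 21.3 and 19.2 CPM in LIN9 KO libraries of the first experiment, which did not pass the test (log2 fold change -0.31 ± 0.14, SE, edgeR adjusted p = 0.130). In the second experiment it fell from 29.3, 28.1 and 23.2 CPM in control to 13.1, 15.4 and 17.9 CPM in LIN9 KO libraries (-0.80 ± 0.19, adjusted p = 0.00270). The double knockout (23.5, 26.1 and 18.5 CPM) overlapped Sav1 KO (19.2, 31.4 and 25.6 CPM) in Lin9 level (-0.16 ± 0.18, adjusted p = 0.586). Each double knockout library held more Lin9 than each LIN9 KO library, which was so for 7.2% of all genes. This difference (log2 fold change 0.56) did not pass the test over all genes. Sav1 stood at 54.5, 56.2 and 61.9 CPM in control and at 43.1, 36.1 and 43.0 CPM in Sav1 KO libraries, with no overlap, although the change did not pass the test over all genes (-0.50 ± 0.12, adjusted p = 0.318). The double knockout held 44.0, 40.5 and 42.3 CPM of Sav1 (-0.44 ± 0.12 against control, adjusted p = 0.00873).

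In control ventricles the members differed widely in level. Levels per kb of exonic length were compared among the 51 members with at most 10% of that length within other gene spans (32 large, 19 small). In the first experiment Mrpl34 (72.1 ± 5.27 RPKM, the CPM per kb, SD, n = 3), Mrpl54 (61.0 ± 4.16 RPKM) and Mrpl28 (57.5 ± 1.26 RPKM) were the highest of the large subunit genes. Mrpl54 and Mrpl28 overlapped in their libraries, with lowest values of 56.7 and 56.5 RPKM, while Mrpl34 lay above both in all 3 libraries. In the control of the second experiment Mrpl54 (67.1 RPKM) and Mrpl34 (65.6 RPKM) stood in the other order. At the lower end stood Mrpl48 (3.91 ± 0.11 RPKM) and Mrpl23 (3.64 ± 0.35 RPKM), which differed by less than their spread. Both have a pseudogene in the table, Mrpl48-ps and Mrpl23-ps1, so that reads of these near copies may be split or lost. Among small subunit genes Mrps21 (93.1 ± 7.89 RPKM) was highest, ahead of Mrps28 (56.7 ± 6.17 RPKM) and Mrps23 (44.3 ± 1.02 RPKM), and Mrps30 (4.38 ± 0.29 RPKM) and Mrps10 (3.87 ± 0.16 RPKM) were lowest. The median level was 19.2 RPKM for large and 15.1 RPKM for small subunit genes in the first experiment. The order of the 51 levels was nearly the same in both sets of controls (Spearman's rho 0.988 across genes, which share length and annotation).

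Deletion of Lin9 lowered mRNAs of both subunits, and in both experiments. In the first experiment, 23 of 43 large subunit genes (53.5%) and 8 of 28 small subunit genes (28.6%) were lower in LIN9 KO than in LIN9 wt ventricles by edgeR's quasi-likelihood test (Benjamini-Hochberg adjusted p under 0.05 over all 19752 genes tested). Over all genes tested, 9.78% were called lower and 11.1% higher. The median log2 fold change was -0.34 for large and -0.23 for small subunit genes, against 0.02 for all genes tested. Nearly all members had a negative change, 42 of 43 large and 26 of 28 small subunit genes. None was called higher by edgeR, DESeq2 or limma-voom, and no member with a positive change had an unadjusted p under 0.05. In 31 large and 14 small subunit genes, each LIN9 KO library lay below each LIN9 wt library, which held for 18.1% of all genes tested. Without LIN9 wt replicate 3 the calls fell to 12 large and 4 small subunit genes, and without LIN9 KO replicate 1 to 5 small subunit genes. For fits other than the main one, here and below, the share of all genes called is not given. Whether such falls were particular to the members was therefore not tested. In these bulk samples, fewer cells of a type and less RNA per cell cannot be told apart.

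**Figure D1:**
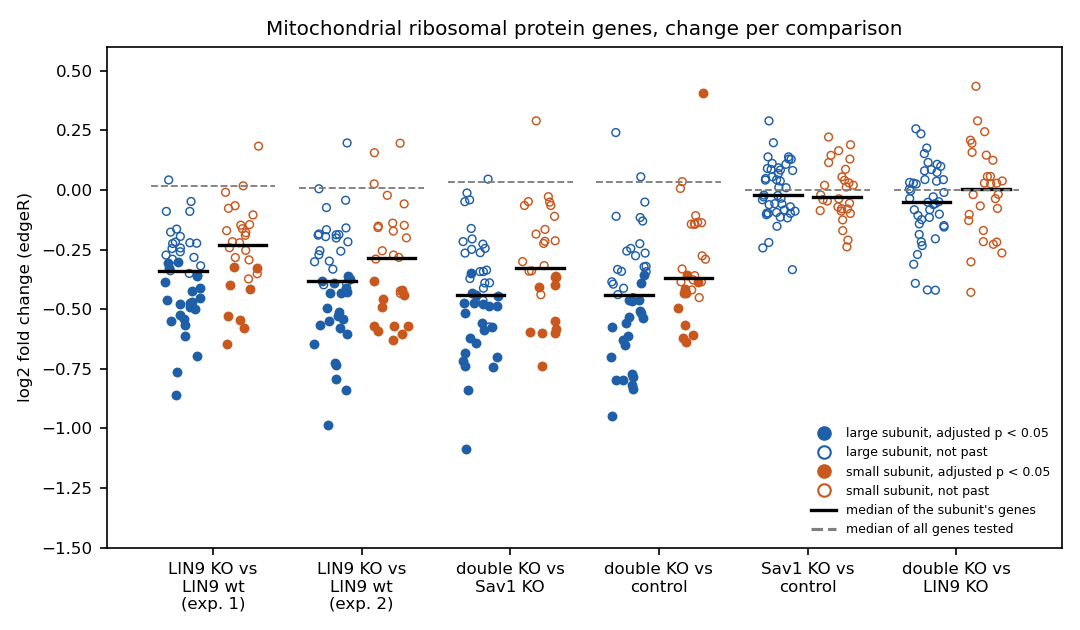
Log2 fold change (y axis, edgeR) of the 43 large (blue) and 28 small (orange) subunit genes in 6 comparisons of genotypes. Filled points passed an adjusted p of 0.05, black bars are the medians of each subunit and dashed lines the medians of all genes tested. The points sit mostly below 0 in the 4 comparisons that differ in LIN9, and around 0 in the 2 that differ in Sav1 alone.

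Markers of other cell types moved with the same genotypes, most of the lists in a single direction. Of 7 tested cardiomyocyte markers, 6 were lower with LIN9 KO in the first experiment (median -0.92) and 6 in the second (median -0.92). Their sum lay between 19000 and 19690 CPM in LIN9 wt and between 8779 and 11970 CPM in LIN9 KO in the first experiment, and between 19950 and 20780 CPM in control and 9239 and 11920 CPM in LIN9 KO in the second. It was 20710 to 21890 CPM in Sav1 KO and 9669 to 11680 CPM in the double knockout. All 7 tested erythroid markers, chiefly globin genes, were higher in both experiments (medians 2.86 and 2.80), with sums of 4298 to 6289 CPM against 24040 to 62750 CPM in the first and 2246 to 2873 CPM against 14480 to 26600 CPM in the second. The 6 macrophage markers were all higher in the first and 5 of 6 in the second, and 4 of 5 fibroblast and 4 of 5 epicardial markers were higher in each. Endothelial markers went both ways. Of 6, 2 were higher in the first experiment, Emcn (0.75 ± 0.11) and Pecam1 (0.63 ± 0.13), and in the second these 2 were higher and Kdr was lower (-0.83 ± 0.13). Of 5 atrial markers, 0 were called in the first and 2 were higher in the second experiment, Sln and Bmp10. In the double knockout against Sav1 KO, 6 of 7 cardiomyocyte markers were lower (median -1.02). There 6 of 7 erythroid (median 2.73), 6 of 6 macrophage, 5 of 5 fibroblast and 4 of 5 epicardial markers were higher. Of 6 endothelial markers 3 were higher and 1 lower, and of 5 atrial markers 2 were higher. Of these lists, Actc1 and Alas2 were at 0 in all libraries. The part of these shifts in the members' changes was not tested.

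Mrpl12 changed most. It encodes a protein of the stalk of the large subunit, where translation factors dock, and the protein is also known to bind the mitochondrial RNA polymerase. The gene lies at chr11:120484613-120489065 on the plus strand of GRCm38. In the first experiment it stood at 58.8, 61.3 and 72.3 CPM in LIN9 wt and at 36.4, 35.8 and 33.7 CPM in LIN9 KO libraries. The groups were far apart, and the fitted fold was 0.550 of the control (log2 fold change -0.86 ± 0.11, SE, edgeR adjusted p = 6.17e-05). About 26.3% of its exonic length lies within the span of Gm16755 on the other strand.

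Mrpl36, a small protein with a bacterial counterpart, stood at 48.4, 52.9 and 56.4 CPM in LIN9 wt and at 34.5, 29.2 and 29.2 CPM in LIN9 KO libraries. The groups did not overlap (-0.77 ± 0.11, adjusted p = 0.000203). Mrpl19 went from 46.9, 50.7 and 47.0 CPM to 32.4, 33.8 and 28.4 CPM, again without overlap (-0.61 ± 0.11, adjusted p = 0.000864). Mrpl23 came after Mrpl12 and Mrpl36 in size of change, from 17.4, 16.2 and 19.6 CPM to 11.0, 9.44 and 12.4 CPM (-0.70 ± 0.15, adjusted p = 0.00388), with the doubt about its pseudogene given above. Mrpl3, whose human counterpart is a cardiomyopathy gene, stood at 93.0, 101 and 101 CPM in LIN9 wt and at 64.2, 66.9 and 68.1 CPM in LIN9 KO (-0.57 ± 0.10, adjusted p = 0.000614). Of its exonic length, 81.4% lies within the spans of Gm38077 and Gm47106 and 3.72% under their exons. Whether this affected its count was not tested. Mrpl44, another human cardiomyopathy gene, passed narrowly, at 31.3, 33.1 and 32.1 CPM against 24.8, 24.6 and 27.4 CPM (-0.33 ± 0.11, adjusted p = 0.0457), and its call was lost without any single library other than LIN9 KO replicate 3, with an adjusted p of up to 0.139.

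Among small subunit genes Mrps22, a mitochondria-specific protein, changed most. Its level was 43.4, 43.0 and 53.2 CPM in LIN9 wt and 29.8, 27.4 and 32.1 CPM in LIN9 KO libraries, so the groups were separate (-0.64 ± 0.12, adjusted p = 0.00117). Mrps35 followed, with 56.9, 62.6 and 61.1 CPM against 37.4, 40.7 and 42.9 CPM (-0.58 ± 0.10, adjusted p = 0.000871). Mrps31 and Mrps27, the latter a protein with pentatricopeptide repeats, fell by 0.54 and 0.53 on the log2 scale. Of the exonic length of Mrps27, 40.6% lies within the span of another gene, as does 37.9% of that of Mrpl19. The remaining 4 calls, Mrps26, Mrps24, Mrps9 and Mrps2, were each lost without LIN9 wt replicate 3. The other 20 small subunit genes tested did not pass. Mrps12, the counterpart of the bacterial protein at the decoding centre, stood at 26.0, 24.8 and 29.8 CPM in LIN9 wt and at 25.8, 23.1 and 23.9 CPM in LIN9 KO, which overlapped (-0.15 ± 0.12, adjusted p = 0.448).

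To show the promoters of members that fell, the windows of Mrpl12, Mrpl36 and Mrps22 are printed from 250 bases before to 50 bases after the RefSeq start (GRCm38.p6, 5′ to 3′ on the gene's strand), with matches to the motifs described further on in capitals. The Mrpl12 window is chr11:120484387-120484686 on the plus strand and held none of these motifs. The Mrpl36 window is chr13:73330759-73331058 on the plus strand, inside the gene as GENCODE draws it, and held an E-box and a YY1 motif. The Mrps22 window is chr9:98601630-98601929 on the minus strand and held an ETS motif.
Mrpl12: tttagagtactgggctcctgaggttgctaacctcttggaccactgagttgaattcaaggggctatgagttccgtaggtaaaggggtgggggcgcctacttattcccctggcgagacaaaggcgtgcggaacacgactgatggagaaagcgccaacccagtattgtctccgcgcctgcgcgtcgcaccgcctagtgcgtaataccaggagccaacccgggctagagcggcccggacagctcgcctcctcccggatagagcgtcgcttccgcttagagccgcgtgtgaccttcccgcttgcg
Mrpl36: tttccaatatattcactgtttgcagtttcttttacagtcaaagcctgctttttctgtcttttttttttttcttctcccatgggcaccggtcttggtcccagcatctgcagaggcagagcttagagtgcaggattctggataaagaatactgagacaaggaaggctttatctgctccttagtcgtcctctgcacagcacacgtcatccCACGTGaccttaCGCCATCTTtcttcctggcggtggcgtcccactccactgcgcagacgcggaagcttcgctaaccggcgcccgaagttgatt
Mrps22: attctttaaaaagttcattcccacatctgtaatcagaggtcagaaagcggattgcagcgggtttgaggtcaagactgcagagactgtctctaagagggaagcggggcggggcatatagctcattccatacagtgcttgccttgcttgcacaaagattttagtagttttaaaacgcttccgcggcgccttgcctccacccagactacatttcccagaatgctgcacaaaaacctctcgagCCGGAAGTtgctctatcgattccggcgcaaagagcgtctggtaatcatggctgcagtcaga

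The second experiment repeated the LIN9 comparison in other libraries. Here 22 of 43 large subunit genes (51.2%) and 11 of 28 small subunit genes (39.3%) were lower in LIN9 KO than in control, where 10.5% of the 17675 genes tested were called lower and 12.8% higher. The median log2 fold change was -0.38 for large and -0.29 for small subunit genes, against 0.01 for all genes. None was called higher by edgeR, DESeq2 or limma-voom, and no member with a positive change had an unadjusted p under 0.05. The libraries of the groups did not overlap in 23 large and 15 small subunit genes that were lower (16.8% of all genes). The groups were also apart in 1 small subunit gene that was higher, Mrps6 (18.4% of all genes). The count fell to 14 large and 7 small subunit genes without control replicate 1 and to 5 small subunit genes without LIN9 KO replicate 2. DESeq2 called 14 large and 6 small subunit genes lower.

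Mrpl12 again changed most, from 62.2, 55.8 and 54.6 CPM in control to 32.5, 26.2 and 28.3 CPM in LIN9 KO libraries. Its fitted fold was 0.505 of the control (-0.99 ± 0.13, adjusted p = 2.72e-06). Mrpl19 went from 51.2, 41.1 and 46.0 CPM to 27.3, 23.9 and 26.1 CPM, with no overlap (-0.84 ± 0.14, adjusted p = 4.87e-05). Mrpl42, a mitochondria-specific protein, went from 87.1, 64.8 and 73.3 CPM to 47.0, 39.7 and 43.2 CPM (-0.79 ± 0.13, adjusted p = 4.98e-05). Mrpl48 fell by 0.73 and Mrpl36 by 0.72 on the log2 scale, and Mrpl36 varied more here, at 34.2, 19.0 and 21.6 CPM in LIN9 KO against 46.5, 40.4 and 37.0 CPM in control. Mrps22 stood at 38.9, 35.6 and 38.0 CPM in control and at 26.6, 22.0 and 24.2 CPM in LIN9 KO (-0.63 ± 0.14, adjusted p = 0.00124). Mrps35 (-0.60 ± 0.13), Mrps24 (-0.59 ± 0.16) and Mrps26 (-0.57 ± 0.15) came next. The Mrps24 call was lost without control replicate 3 (adjusted p = 0.059) or without LIN9 KO replicate 2 (adjusted p = 0.0537), and that of Mrps26 without control replicate 1 (adjusted p = 0.0557).

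**Figure D2:**
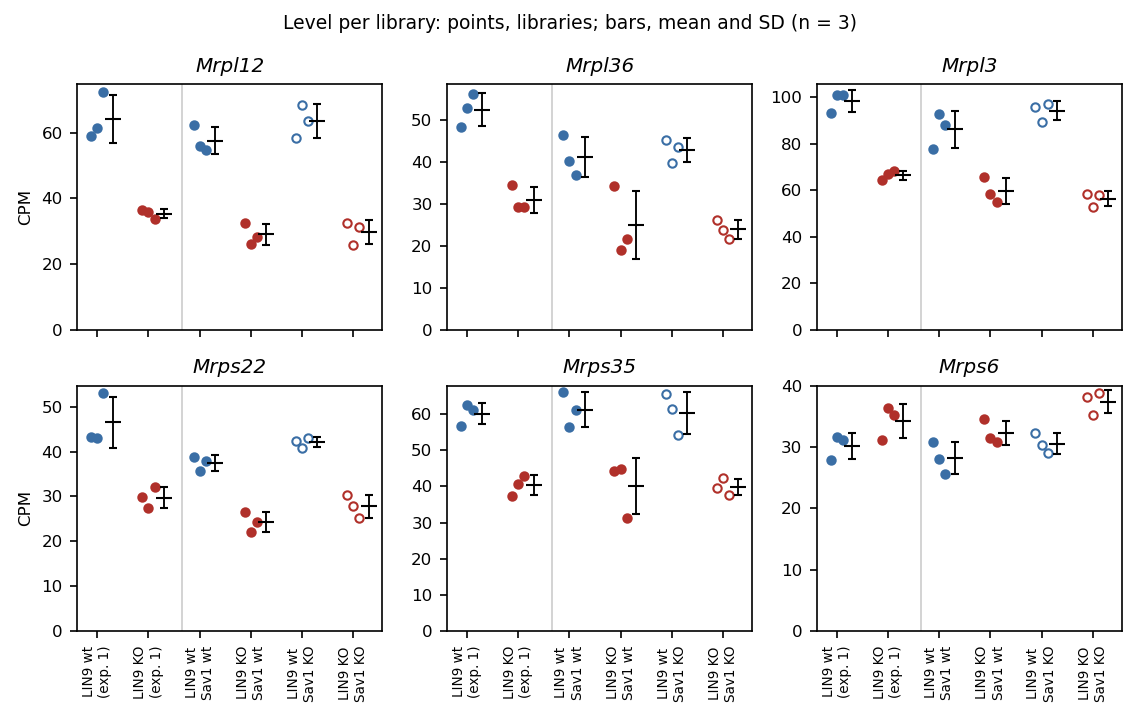
Level (y axis, CPM) of Mrpl12, Mrpl36, Mrpl3, Mrps22, Mrps35 and Mrps6 in the 6 genotype groups, with points for libraries and bars for mean and SD (n = 3); the grey line parts the experiments. For the first 5 genes the 9 libraries with LIN9 KO lie below their LIN9 wt counterparts, while Mrps6 reaches its highest values of the second experiment, 38.2, 35.2 and 38.8 CPM, in the double knockout.

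The LIN9 effect in the presence of Sav1 deletion was given by the double knockout against Sav1 KO. It lowered 22 of 43 large (51.2%) and 10 of 28 small (35.7%) subunit genes, where 11.6% of all genes were called lower and 11.8% higher, with medians of -0.44 and -0.33 against 0.03 for all genes. No member was called higher by edgeR, DESeq2 or limma-voom, and 1 had an unadjusted p under 0.05 with a positive change, Mrps6 (0.29 ± 0.13, edgeR adjusted p = 0.124). In 33 large and 16 small subunit genes each double knockout library lay below each Sav1 KO library (19.2% of all genes). Without Sav1 KO replicate 2 the counts were 14 large and 6 small subunit genes, and without double knockout replicate 2, 6 small subunit genes. DESeq2 called 6 small subunit genes lower. Mrpl12 stood at 58.2, 68.5 and 63.5 CPM in Sav1 KO and at 32.4, 25.7 and 31.3 CPM in the double knockout (-1.09 ± 0.13, adjusted p = 5.32e-07), a fitted fold of 0.471. Mrpl36 (-0.84 ± 0.17), Mrpl3 (-0.74 ± 0.11) and Mrpl38 (-0.74 ± 0.14) followed, then Mrps26 among the small subunit genes, at 34.7, 34.1 and 36.8 CPM against 21.5, 20.4 and 21.3 CPM (-0.74 ± 0.15, adjusted p = 0.000619). These groups did not overlap in any of the 5 genes. Mrps22 (-0.60 ± 0.14), Mrps27 (-0.60 ± 0.15) and Mrps35 (-0.60 ± 0.13) were the next small subunit genes, also without overlap.

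The double knockout was also set against the control, which shares libraries with comparisons above. There 22 large and 10 small subunit genes were lower (9.96% of all genes were) and 1 small subunit gene was higher (10.7% of all genes were), with medians of -0.44 and -0.37 against 0.03 for all genes. Mrpl12 fell by 0.95 on the log2 scale (adjusted p = 6.37e-06), Mrpl57 by 0.84, Mrpl23 by 0.82 and Mrpl41 by 0.80. Mrps27 fell by 0.64, Mrps35 by 0.62, Mrps26 by 0.61 and Mrps24 by 0.56. The calls of Mrpl23, Mrps26 and Mrps24 were lost without control replicate 1 (adjusted p up to 0.0812), and that of Mrps24 also without control replicate 3 or double knockout replicate 3. Without control replicate 1 the counts were 14 large and 4 small subunit genes, without control replicate 3, 5 small, and without double knockout replicate 2, 6 small subunit genes. DESeq2 called 5 small subunit genes lower.

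The gene called higher was Mrps6, which encodes a small subunit protein with a bacterial counterpart. It stood at 30.9, 28.1 and 25.6 CPM in control, 34.5, 31.5 and 30.9 CPM in LIN9 KO, 32.3, 30.4 and 29.0 CPM in Sav1 KO and 38.2, 35.2 and 38.8 CPM in the double knockout (0.41 ± 0.14 against control, adjusted p = 0.0337). The double knockout lay above each other group, and the call was lost in DESeq2, with no count filter, when only the 6 libraries of the comparison were fitted, and without any single library of the comparison other than control replicate 1 (adjusted p up to 0.137). Of the exonic length of Mrps6, 97.0% lies within the spans of Slc5a3, Gm49711 and Gm16310 on chr16:92058270-92112227, so its reads cannot be assigned with certainty. In the first experiment its change was 0.18 ± 0.11 (adjusted p = 0.292), and the groups overlapped.

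Deletion of Sav1 alone gave no called member. In Sav1 KO against control, 0 of 71 members passed in edgeR, DESeq2 or limma-voom, and 1 had an unadjusted p under 0.05, Mrpl41 (-0.33 ± 0.16, adjusted p = 0.999). This comparison called few genes of any kind, 0.00566% of all genes lower and 0.0113% higher. An unadjusted p under 0.05 was reached by 693 of the 17675 genes tested. The medians were -0.02 for large and -0.03 for small subunit genes, against 0.00 for all genes. In the double knockout against LIN9 KO, 0 of 71 members passed by the same 3 tools, and 0.0113% of all genes were called lower and 0% higher. An unadjusted p under 0.05 in edgeR was found for 4 members and for 2093 of the 17675 genes tested. These 4 were Mrpl45 (-0.42 ± 0.14), Mrpl38 (-0.39 ± 0.14), Mrpl15 (-0.31 ± 0.15) and Mrps18b (0.44 ± 0.21). Without LIN9 KO replicate 3, 1 large subunit gene was called lower in this comparison.

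Whether the LIN9 effect differed between Sav1 wt and Sav1 KO was tested as an interaction. Of 71 members, 0 passed in edgeR, DESeq2 or limma-voom (0% of all genes did in edgeR), and 2 had an unadjusted p under 0.05, Mrps2 (-0.49 ± 0.21) and Mrpl45 (-0.40 ± 0.19). Such a p was found for 1156 of the 17675 genes tested. The median interaction was -0.08 for large and 0.01 for small subunit genes. For Mrpl12 the LIN9 effects were -0.99 ± 0.13 with Sav1 wt and -1.09 ± 0.13 with Sav1 KO. A difference too small for 3 libraries per group would not have passed this test.

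**Figure D3:**
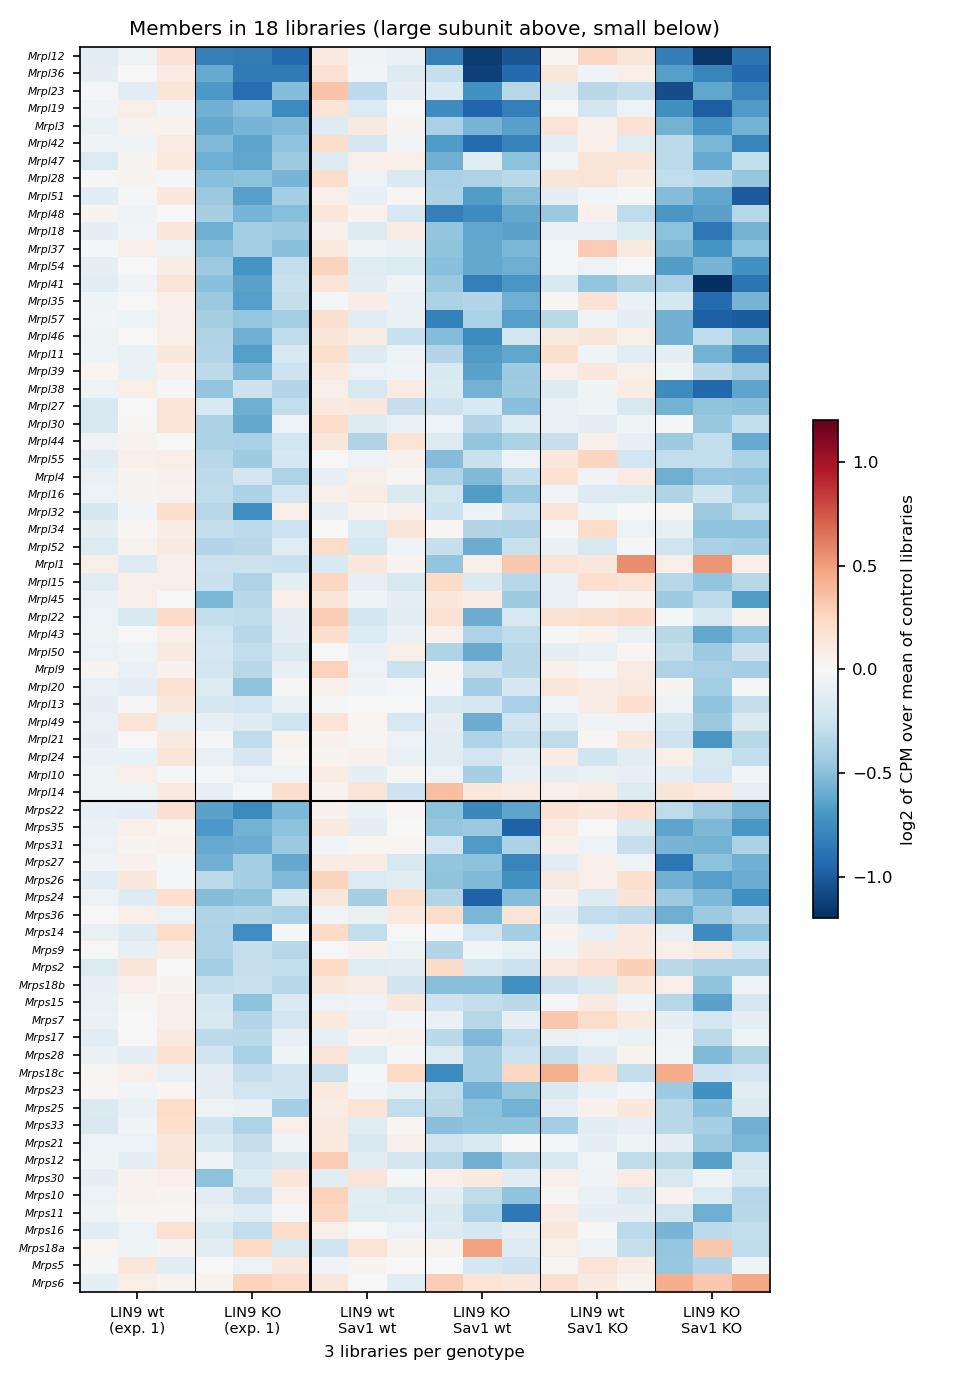
Log2 of the CPM over the mean of the control libraries of the same experiment (colour, blue lower and red higher) for 43 large (above the line) and 28 small subunit genes in 18 libraries, ordered by the LIN9 effect of the first experiment. The upper rows of each block are mostly blue in the 9 libraries with LIN9 KO, and the lower rows are paler in the first experiment. In the second, some lower rows are blue too. For example, Mrps11 stood at 11.9 CPM in LIN9 KO replicate 3 against a control mean of 21.6 CPM.

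Because the first and second experiment used separate libraries, their LIN9 calls can be compared gene by gene. Called lower in both were 26 members, or 36.6% of the 71 tested, against 6.77% of all genes tested in both experiments. They are 83.9% of the 31 called in the first and 78.8% of the 33 called in the second experiment. Over all genes these shares were 62.4% and 64.6%. Without LIN9 wt replicate 3 of the first experiment, 14 members (10 large, 4 small) were called lower in both, and without control replicate 1 of the second, 13 large subunit genes. Among large subunit genes these were 20, or 87.0% of 23 and 90.9% of 22. Among small subunit genes they were 6, Mrps22, Mrps24, Mrps26, Mrps27, Mrps31 and Mrps35, or 75% of 8 and 54.5% of 11. The changes of the 71 members had the same sign in 67 (94.4%), negative in 65 of these, and those of all genes in 77.6%. Across the members Pearson's r was 0.749 and Spearman's rho 0.680 (all genes tested in both: r 0.686 over 17656 genes), given as a description, since genes of a library share its depth and makeup.

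Called lower with LIN9 KO in the first experiment, in the second with Sav1 wt and in the second with Sav1 KO were 16 large subunit genes. They were Mrpl3, Mrpl4, Mrpl11, Mrpl12, Mrpl18, Mrpl19, Mrpl28, Mrpl35, Mrpl36, Mrpl37, Mrpl38, Mrpl42, Mrpl46, Mrpl51, Mrpl54 and Mrpl57. The 6 small subunit genes called in both experiments were called with Sav1 KO too. These 22 members are 31% of the 71 tested, against 5.53% of all genes. Without LIN9 wt replicate 3 of the first experiment they were 13, of them 9 large subunit genes. In none of the 3 comparisons was a lower call made for 13 large and 12 small subunit genes, or 35.2% of the 71, against 82.4% of all genes. Mrpl14 had the highest change of the large subunit genes tested in the first experiment, at 0.04 ± 0.12, and in the second with Sav1 wt, at 0.20 ± 0.15, with overlapping groups in both.

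**Figure D4:**
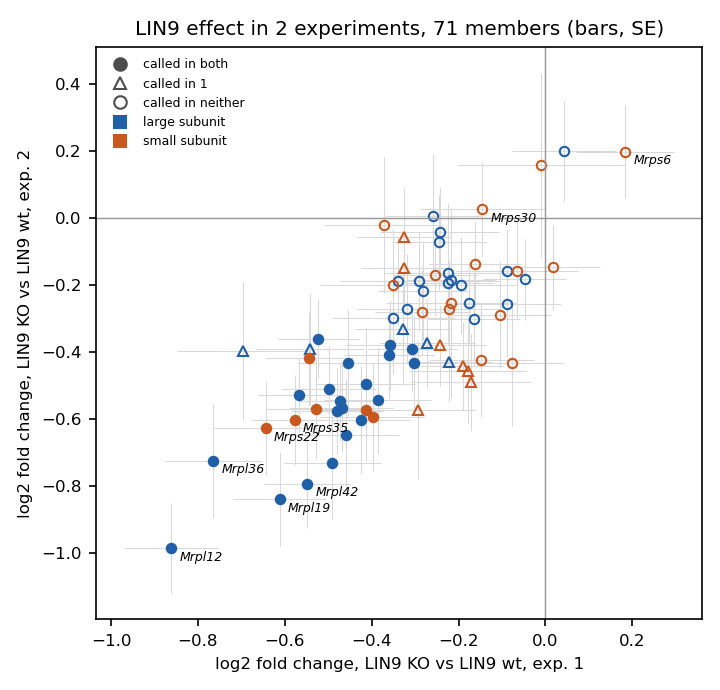
Log2 fold change of LIN9 KO against LIN9 wt in the first (x axis) and second experiment (y axis, Sav1 wt) for 71 members; bars are standard errors. Of the points, 65 lie in the lower left corner, with Mrpl12 farthest from 0 at -0.86 and -0.99.

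Several genes with roles of interest had no call in the first experiment. The paralogs Mrps18a, Mrps18b and Mrps18c encode related proteins that sit at different places in the mitoribosome, and structures place Mrps18a in the large subunit in spite of its name. Mrps18a changed by -0.01 ± 0.19 in the first and 0.16 ± 0.27 in the second experiment, and its groups overlapped in both. It was low, at 5.77, 5.48 and 5.82 CPM in LIN9 wt, so its errors were wide, and 95.2% of its exonic length lies within the span of Rsph9. Mrps18c changed by -0.22 ± 0.15 and -0.25 ± 0.28, neither past the threshold. Mrps18b was called in the second experiment (-0.57 ± 0.21, adjusted p = 0.0433) but not in the first (-0.29 ± 0.13, adjusted p = 0.141), and its call was lost without any single library of the comparison other than control replicate 3 (adjusted p up to 0.116). Mrps30, also placed in the large subunit by structures, changed by -0.14 ± 0.14 and 0.03 ± 0.14. Mrps36 changed by -0.37 ± 0.14 (adjusted p = 0.0665) and -0.02 ± 0.20.

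Taken by evolutionary origin, 16 of 27 tested mitochondria-specific members and 15 of 43 bacterial homologues were lower with LIN9 KO in the first experiment, with medians of -0.36 and -0.28 (9.78% of all genes were lower). In the second experiment these were 21 of 27 and 12 of 43, with medians of -0.49 and -0.26 (10.5% of all genes). In the double knockout against Sav1 KO they were 14 of 27 and 18 of 43, with medians of -0.44 and -0.37 (11.6% of all genes). The difference between these classes was not tested.

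The members together made up 3176, 3336 and 3536 CPM in LIN9 wt and 2648, 2535 and 2840 CPM in LIN9 KO libraries of the first experiment, with no overlap. In the second experiment they summed to 3302, 2957 and 2988 CPM in control and 2590, 2289 and 2365 CPM in LIN9 KO. Sav1 KO held 3067, 3114 and 3098 CPM, within the range of the control, and the double knockout 2507, 2254 and 2327 CPM. The ratio of large to small subunit CPM was 1.83, 1.84 and 1.82 in LIN9 wt and 1.73, 1.70 and 1.72 in LIN9 KO of the first experiment. It was 1.81, 1.79 and 1.75 in control, 1.72, 1.64 and 1.69 in LIN9 KO, 1.76, 1.79 and 1.79 in Sav1 KO and 1.68, 1.64 and 1.59 in the double knockout. By CPM each library with LIN9 KO thus lay below each library with LIN9 wt of its experiment. Per kb of exonic length this held in the first but not in the second experiment, where LIN9 KO replicate 1 (1.82) and double knockout replicate 2 (1.85) lay above control replicate 3 (1.81). The mean ratio in LIN9 KO over that in LIN9 wt was 0.939 in the first and 0.946 in the second experiment, and per kb of exonic length it was 0.916 and 0.923. No test was made of these sums.

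**Figure D5:**
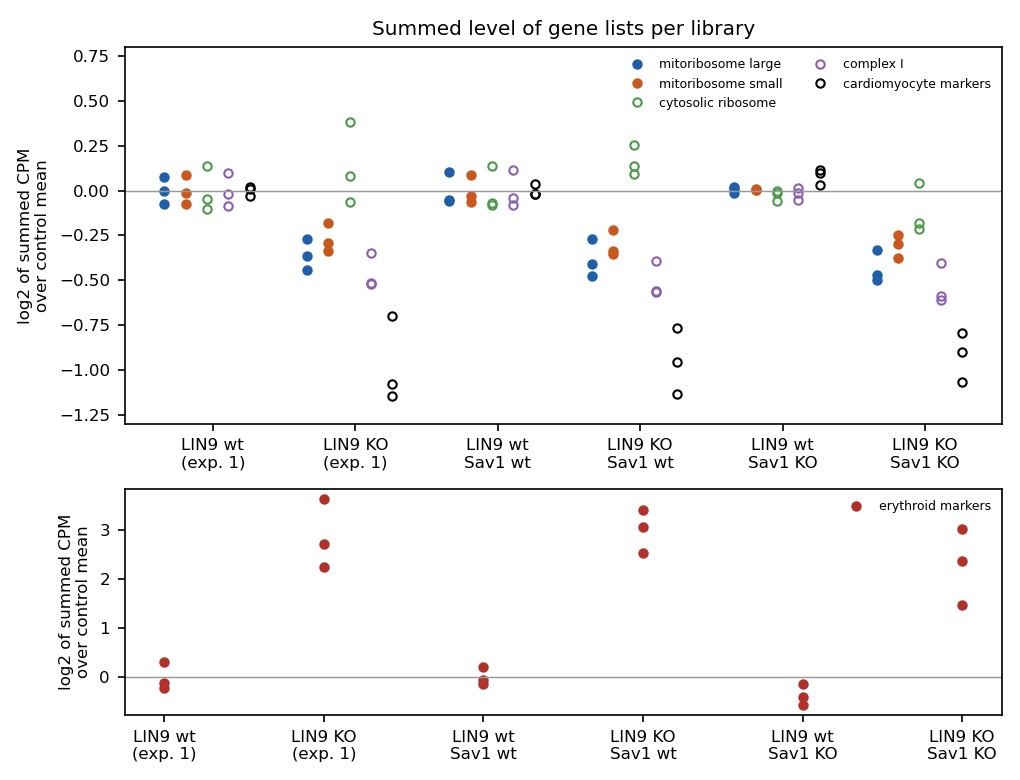
Log2 of the summed CPM of gene lists over the mean of the control libraries of the same experiment (y axis) in the 6 genotype groups, with a point per library; erythroid markers are drawn below on a wider scale. With LIN9 KO, the mitoribosome lists and complex I lie below 0, the cardiomyocyte markers lie lower still, and the erythroid markers lie above 0.

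The remaining machinery of mitochondrial translation was counted from lists chosen by function, and is read against the 9.78% and 10.5% of all genes called lower in the first and second experiment. Of the 6 mitoribosome genes with other names, 1 fell in the first and 2 in the second experiment, among them Ict1, a peptidyl-tRNA hydrolase built into the large subunit (-0.33 ± 0.11 and -0.57 ± 0.14). The other in the second was Ptcd3, a small subunit protein with pentatricopeptide repeats (-0.33 ± 0.11). Of 14 translation factors, 7 fell in the first (50%) and 6 in the second (42.9%, medians -0.37 and -0.31). Tsfm, the elongation factor that recharges Tufm, fell by 0.66 and 0.88, and Tufm, which brings aminoacyl-tRNA to the mitoribosome, by 0.83 in the second experiment. Taco1, which activates translation of a cytochrome oxidase mRNA, fell by 0.69 and 0.65, and Gfm1, a translocation factor, by 0.51 in the first. Of 23 tested assembly and rRNA modification factors, 6 fell in the first (26.1%) and 8 in the second experiment (34.8%). Mrm1, which methylates the large mitochondrial rRNA, was the furthest down, by 0.92 and 0.99. Rnmtl1, another such methyltransferase, fell by 0.87 and Mtg1, a GTPase of mitoribosome assembly, by 0.71 in the first, and the GTPases Noa1 and Mtg2 by 0.79 and 0.71 in the second. Of 17 mitochondrial tRNA synthetases, 6 and 7 fell (35.3% and 41.2%), with Ears2, which charges the tRNA for glutamate, at -0.93 ± 0.11 in the first. Mars2, for methionine, fell by 0.61 and 0.62, Yars2, for tyrosine, by 0.61 in the first, and Aars2, for alanine, by 0.62 in the second. Of 10 genes of mitochondrial DNA transcription and replication, 1 and 2 fell (10% and 20%), the first of these shares being near that of all genes. They were Tfb2m, a transcription factor (-0.36 ± 0.12), in the first, and Polrmt, the RNA polymerase (-0.46 ± 0.16), and Tefm, its elongation factor (-0.55 ± 0.20), in the second. The genes of these lists that are not counted here as having fallen did not pass the test.

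For comparison, of 35 tested nuclear genes for subunits of complex I of the respiratory chain, 26 fell in the first and 28 in the second experiment, with medians of -0.50 and -0.59. Of 74 tested cytosolic ribosomal protein genes, 2 and 6 were called higher and 0 lower, with medians of 0.13 and 0.14. Against Sav1 KO, the double knockout had 5 of these 74 called lower and 0 higher, with a median of -0.07. The shares called, 2.7% and 8.11% higher and 6.76% lower, were below those of all genes (11.1%, 12.8% and 11.6%). How far these small medians move with the scaling was not tested.

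A set of members shared a start region with other genes. Of the 77 coding members, 33 (42.9%) had the start of a protein-coding gene on the opposite strand within 1000 bp, against 14.1% of 15402 tested protein-coding genes. Of 28 tested partners that were not members, 7 were lower (25%) and 3 higher (10.7%) with LIN9 KO in the first experiment, where 9.78% and 11.1% of all genes were (median -0.09). In the second, 4 were lower (14.3%) and 2 higher (7.14%), near the 10.5% and 12.8% of all genes (median 0.03).

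A few such pairs moved alike. Mrpl36 and Ndufs6, a complex I gene, have GENCODE starts 29 bp apart. The RefSeq start used for the printed Mrpl36 promoter lies further inside the gene. Ndufs6 fell by 0.68 and 0.67 on the log2 scale beside 0.77 and 0.72 for Mrpl36. Mrpl51 starts 100 bp from Ncapd2, a condensin gene, which fell by 0.37 and 0.36 beside 0.50 and 0.51 for Mrpl51. Mrpl47 starts 615 bp from Ndufb5, another complex I gene, which fell by 0.53 and 0.61. Mrpl47 fell by 0.54 in the first experiment and was at -0.39 ± 0.17 in the second (adjusted p = 0.0959). Other pairs did not, such as Mrpl54, at -0.47 ± 0.12 (adjusted p = 0.0569 without LIN9 wt replicate 3) and -0.57 ± 0.13, whose neighbour Apba3, 26 bp away, stood at -0.01 and 0.16. Mrpl46 and Mrps11 are members that start 412 bp apart. Mrpl46 was called in both experiments (-0.41 ± 0.12 and -0.50 ± 0.17), with the first call lost without LIN9 wt replicate 2 or 3 or LIN9 KO replicate 2 and the second without control replicate 1 or 2 or LIN9 KO replicate 1 or 2 (adjusted p up to 0.134), while Mrps11 stood at -0.08 ± 0.12 and -0.43 ± 0.19 without a call. These pairs were chosen after their values were seen.

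Promoter windows of 300 bases were found for 68 of the 77 coding members, 74 windows in all, among 32817 windows of the RefSeq table (GRCm38.p6), and were searched on both strands. None of the motifs contains another. The NRF1 core GCATGCGC was in 10.8% of the members' windows and 2.71% of all windows (4.3% of those of genes tested in the first experiment). The ETS motif CCGGAAGT, which GABPA binds, was in 16.2% against 3.89% (6.44%), and the YY1 motif AAGATGGCG in 10.8% against 1.4% (2.27%). Both ETS factors and NRF1 are known regulators of nuclear genes for mitochondria. The CHR motif (TTTGAA or TTCGAA), to which MuvB complexes bind, was in 17.6% against 19.2% (14.6%). The E-box CACGTG was in 9.46% against 7.15% (9.0%), with 3 of its 7 windows being overlapping windows of Mrpl2, and the ERR motif TCAAGGTCA in 0% against 0.424%. Of the 24 windows of members called lower in both experiments, 29.2% held the ETS motif, 25.0% the YY1 motif, 4.17% the NRF1 core and 16.7% a CHR. Of the 31 windows of members called in neither, these shares were 9.68%, 6.45%, 12.9% and 19.4%. Such matches describe the letters of these windows, and the shares were not tested.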

How the data were processed

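Ventricle RNA of 18 libraries was analysed; 4 ChIP samples were not analysed here. Per the methods and the submitters' processing notes, the authors aligned poly(A) RNA-seq reads to mm10 with TopHat2 2.1.0 and Bowtie2, brought libraries to the smallest mappable number, which limits depth to that of the shallowest library, and deposited read counts per Ensembl gene; strand and overlap settings are not given in the sources used here. The deposited tables of the authors' comparisons hold fold changes, p-values, FDR and log2 CPM and were not used. Of 48713 rows, 4 had repeated identifiers. Counts were tested per experiment with edgeR 4.0.16 (R 4.3.3) as deposited, with TMM scaling, a mean count above 1, glmQLFit and glmQLFTest, 1 term per genotype group and Benjamini-Hochberg adjustment over all genes tested at 0.05; errors are standard errors, and a fold change in the second experiment used all 12 libraries for its spread. Alternatives were DESeq2 1.42.0, limma-voom 3.58.1, other scalings and filters, a replicate block and leaving out each library. The code was tested on simulated data. Coordinates and overlaps came from GENCODE on GRCm38, where 48349 identifiers matched.

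Named were the 4 largest called changes per subunit and comparison and the 3 highest and 2 lowest levels per subunit. Calls against the main direction and genes of known role were also named. For LIN9 KO in each experiment, up to 3 of the largest called changes were named per list of mitochondrial translation and mitochondrial DNA. Other lists and comparisons are given mostly by counts. Head-to-head pairs and other names were chosen after seeing values. The members and lists were chosen with earlier results of these data known. Same-numbered replicates deviated together in the second experiment for LIN9 KO and control (correlations 0.736, 0.353 and 0.432) and for Sav1 KO and control (0.443, 0.238 and 0.183). Such a pairing rests on the data and not on the labels. It was not seen for the double knockout. There the correlations were -0.103, -0.0347 and -0.108 with Sav1 KO, 0.000728, 0.0982 and -0.103 with control, and -0.0186, 0.174 and -0.114 with LIN9 KO. In the first experiment the correlations were 0.311, 0.0509 and 0.296.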

Additional observations from a re-analysis of the deposited data

How the results depend on the processing

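No called result changed direction under the alternatives run. Leaving out 1 library moved the counts of large and small subunit genes called lower from 12 to 28 and from 4 to 11 for LIN9 KO in the first experiment, from 14 to 22 and from 5 to 11 in the second, from 14 to 25 and from 6 to 11 for the double knockout against Sav1 KO, and from 14 to 28 and from 4 to 12 against control. The higher call of Mrps6 in the double knockout against control ranged from 0 to 1, and the large subunit calls against LIN9 KO from 0 to 1. The median of small subunit genes ranged from -0.312 to -0.188 in the first experiment and from -0.384 to -0.286 in the second, from -0.387 to -0.293 against Sav1 KO and from -0.438 to -0.281 against control. Kept in every one of these fits were 16 of 31, 17 of 33, 18 of 32 and 16 of 33 calls, in the same order of comparisons. DESeq2 called 14 large and 6 small subunit genes lower with LIN9 KO in the second experiment, 6 small in the double knockout against Sav1 KO, and 5 small lower and 0 members higher against control. Members called higher there were also 0 with no count filter and with only the 6 libraries of the comparison. Over members with at most 10% of exonic length within other gene spans, an alternative chosen after seeing the data that leaves 32 large and 19 small subunit genes, 7 small subunit genes were called in the second experiment, 14 large against Sav1 KO, and 0 members higher against control. These fall with the smaller lists, from which Mrps6 is itself removed. By structural placement of subunits the median of small subunit genes in the second experiment was -0.380. Per kb, the large-to-small ratio of LIN9 KO divided by that of LIN9 wt in the first experiment was 0.916. The cause of the other shifts was not tested. For the fits of this section the share of all genes called is not given. Whether changes in the counts were particular to the members was thus not tested either.

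With the replicate number as a block, 25 large and 10 small subunit genes were lower in the first experiment, 22 and 11 in the second, 25 and 11 against Sav1 KO, and 25 and 11 against control, and 0 were called in both Sav1 comparisons and the interaction. The block restricted to 6 libraries, chosen after seeing the data, gave 25 and 14 in the second. The block moved no count of calls by over 1.5 times. In the comparisons of the double knockout, it joined same-numbered libraries that did not deviate together. Of the other values for named members, 643 kept their call and 23 lost it, and with 1 library left out 378 kept and 66 lost it. The totals near 2770741 counts in the second experiment limit what can be seen for low members such as Mrps18a.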

Other observations

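Pseudogenes of the family were counted as genes of their own. Mrpl23-ps1 had 341, 329 and 396 counts in LIN9 wt and 224, 232 and 279 counts in LIN9 KO libraries of the first experiment, with no overlap (log2 fold change -0.52, edgeR adjusted p = 0.00572). Mrpl48-ps had 233, 247 and 270 counts against 177, 185 and 211 counts (-0.37, adjusted p = 0.0425). Mrps36-ps1 had 151, 151 and 173 counts against 129, 103 and 140 counts and was not called (-0.34, adjusted p = 0.138). In the second experiment these 3 were called lower, Mrpl23-ps1 at -0.55, Mrpl48-ps at -0.48 and Mrps36-ps1 at -0.60. Over all genes tested, 9.78% were called lower in the first experiment and 10.5% in the second. In the first, 18.1% of all genes had each LIN9 KO library below each LIN9 wt library. Mrps36-ps2 and Mrps36-ps3 were at 0 in all libraries. Reads of such copies and of their parent genes cannot be told apart with certainty in these counts.

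The mitochondrial rRNAs, which the ribosomal proteins bind, were counted in poly(A) libraries. The 2 rRNA genes together stood at 1833, 1953 and 2335 CPM in LIN9 wt and at 2459, 1880 and 1743 CPM in LIN9 KO libraries of the first experiment. In the second experiment they held 2639, 3704 and 4301 CPM in control and 1857, 1585 and 7214 CPM in LIN9 KO, where replicate 3 stood apart. Sav1 KO libraries held 2565, 2791 and 3143 CPM and double knockout libraries 5703, 6519 and 5940 CPM, without overlap. In this last comparison 0 of 2 genes passed edgeR's test, and 1 had an unadjusted p under 0.05.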
